A study of Arabis alpina with 12 samples.

Results

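Lateral buds of the growing zone (V3) were set against lateral buds of the dormant zone (V2), both harvested 5 days after the plants had left the cold. The plants were Arabis alpina, a perennial relative of Arabidopsis thaliana, of the ecotype Pajares. All 6 libraries come from plants that had spent 8 weeks in long days (16 h light at 20 °C, 8 h dark at 18 °C), then 12 weeks at 4 °C with 16 h light, and then 5 days back in the first conditions. The labels give both groups the same treatment history and set them apart by zone. There are 3 V3 and 3 V2 libraries of polyA RNA, described by the labels as biological replicates, of 12 libraries in the series. The remaining 6 are V3 and V2 buds at the end of the cold (0 d), 3 of each. The libraries were read in single reads of 150 bp. At 5 d the recovered reads numbered 21955093, 20216921 and 22586938 in V3 and 18377958, 20967811 and 22581638 in V2. No single gene was altered in either group, so no gene serves as a check of the zone labels.

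An axillary bud that stops growing is a small shoot with a meristem and leaf primordia whose cells are held out of the division cycle. In A. thaliana, arrested buds express transcription factors that raise abscisic acid, a hormone that holds growth back, together with genes of carbon shortage and of protection against drying. Buds that resume growth replicate DNA, divide, build ribosomes and cell walls, and depend on cytokinin, auxin transport and sugar supply. In perennials part of the buds stays dormant while the neighbouring zones grow or flower.

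Values are normalised counts, that is, gene counts divided by 1 factor per library, and every difference is V3 minus V2 of log2(normalised count + 1) with its standard error (SE). That scale understates the change of genes with low counts. A gene was called when the Benjamini-Hochberg adjusted p of limma's moderated test was under 0.05. Zeros contradicted by another library of the group (20 or more) or by the deposited FPKM were left out library by library as failed, 899 to 961 in each 5 d library. Group values are means ± SD over 3 libraries. The p-values rest on the spread within groups over all 12 libraries of the series, those at 0 d included. In whole buds, fewer cells of a type and less RNA per cell cannot be told apart.

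Of 17014 genes tested, 6323 (37.2%) were called, 2850 (16.8%) higher and 3473 (20.4%) lower in V3 buds. A difference of at least 2-fold was met by 2661 called genes (15.6%), 1111 higher and 1550 lower. The extremes were uneven: 167 called genes were higher by at least 3 on the log2 scale and 324 were lower by at least 3. Called genes listed at 0 in every usable V3 library numbered 91, and those listed at 0 in every usable V2 library numbered 81. The log2 size of such genes depends on the count added before the log and is not a measured fold. How many of them are among the extremes was not counted. In 9816 genes (57.7%) the 3 V3 values did not overlap the 3 V2 values. Such a lack of overlap was a condition of the main rule for naming called genes below, so in those genes it adds no support. The difference of all tested genes had a median of -0.05 and a median size of 0.45. With edgeR and the zeros as deposited the balance turned, to 1630 genes higher and 1186 lower, and limma on the same zeros gave 1592 and 1578. The 10 most abundant genes took 5.05% to 5.34% of each V3 library and 2.94% to 3.55% of each V2 library.

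**Figure D1:**
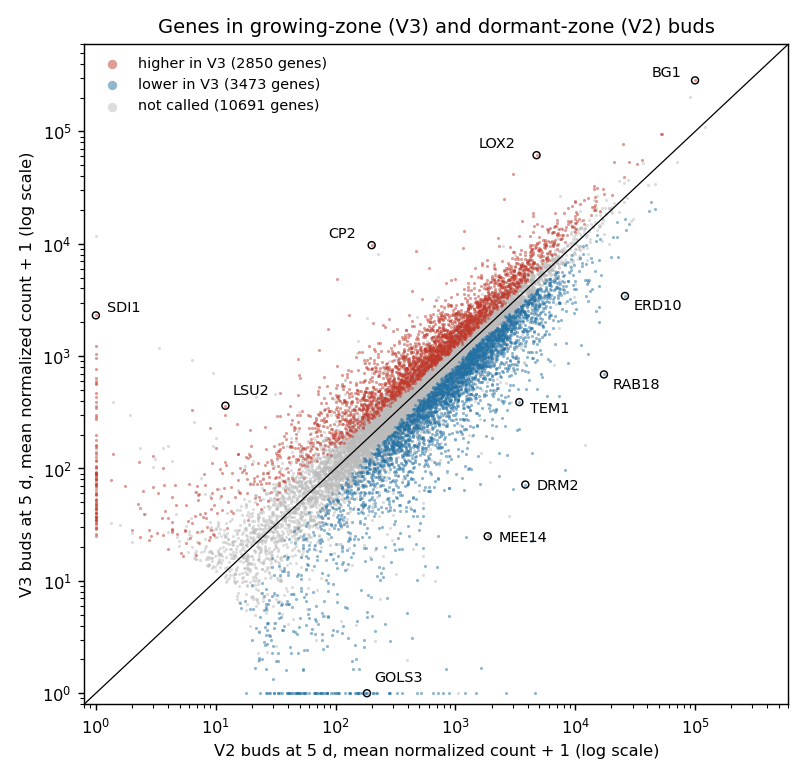
Mean normalised count + 1 of each of 17014 tested genes in V3 buds (vertical axis, log scale) and V2 buds (horizontal axis, log scale) at 5 d, 3 libraries each with failed zeros left out. Points are genes, coloured when called, and the line marks equal means. Circled genes are labelled examples, such as RAB18 at 686 in V3 and 17330.1 in V2.

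Names and roles come from the A. thaliana homologues that the authors paired with genes they listed as changed in any of their comparisons. Such genes were therefore chosen on these same libraries, and the counts of a list are not independent evidence of its direction. Of the 2534 tested genes with a homologue, 1657 (65.4%) were called, 748 (29.5%) higher and 909 (35.9%) lower, with a median difference of -0.16. Among the 1091 that the authors listed only in other comparisons, 254 (23.3%) were called. The counts below are to be read against these shares. Under 65.4% were called in the auxin, jasmonate, flowering promoter, meristem and boundary, cuticle, photosynthesis, flavonoid and glucosinolate lists, among others.

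**Figure D2:**
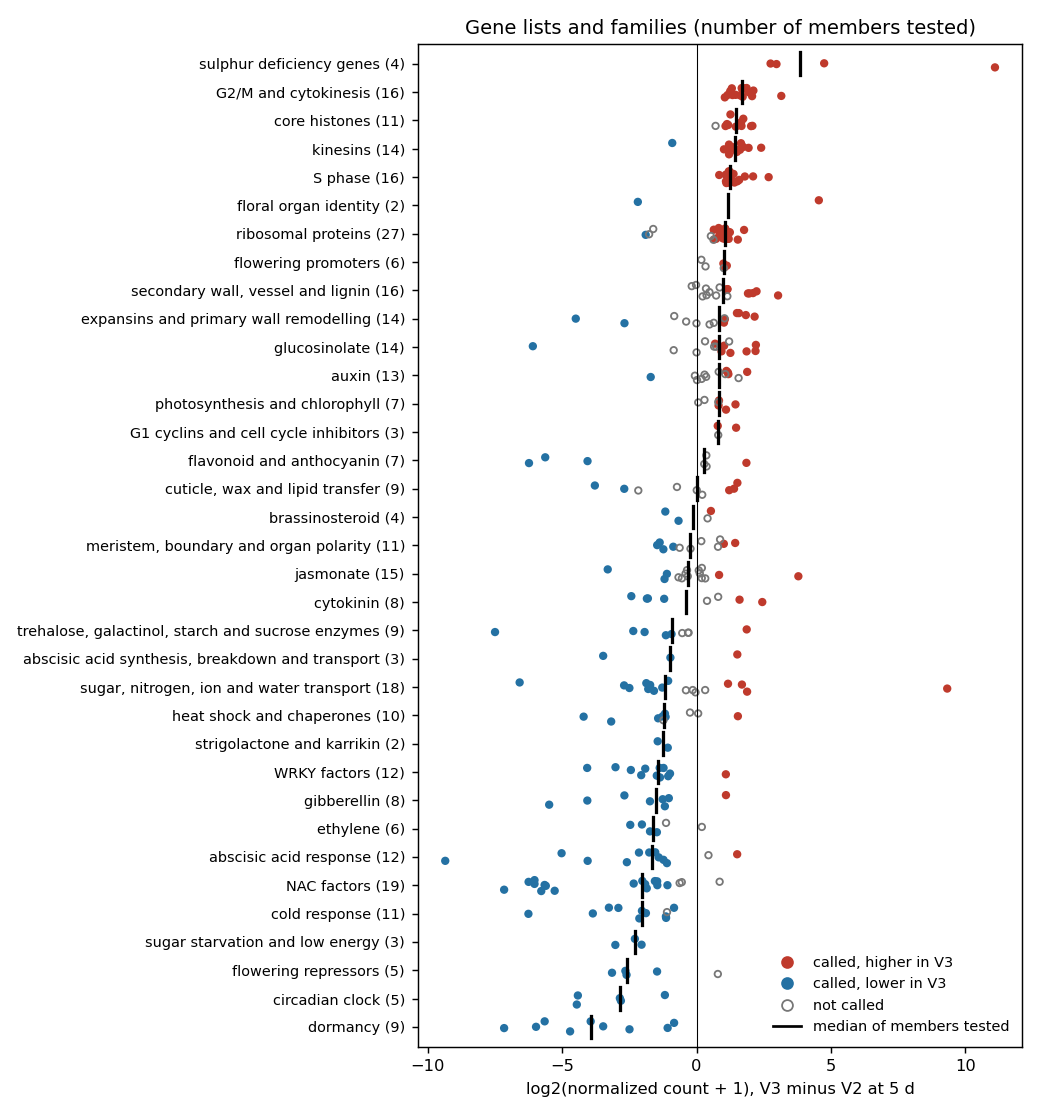
Difference between V3 and V2 buds at 5 d (horizontal axis, log2 of normalised count + 1) for each tested member of gene lists and families (rows, with the number tested). Filled points are called genes, open points are not called, and black bars are medians, which run from -3.94 for dormancy to 3.86 for the sulphur deficiency genes.

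Genes of dormancy, abscisic acid and drying were lower in the growing zone. All 9 tested dormancy genes fell, with a median difference of -3.94, and 10 of 12 abscisic acid response genes fell while 1 rose (median -1.65). RAB18 (Aa_G43900), a dehydrin that accumulates in response to abscisic acid, held 1060.2, 839 and 160.1 normalised counts in V3 libraries, against 15976, 22018 and 13996 in V2 libraries. Its highest V3 value lay far below its lowest V2 value (log2 difference -5.02 ± 1.02 SE, adjusted p = 0.00364). NAP (a senescence-promoting NAC factor) was listed at 0 in the 3 V3 libraries and held 158, 183 and 98.8 in V2. Its FPKM was at most 0.407 in V3 and at least 5.12 in V2. A group listed at 0 throughout adds no spread to the fit, so the adjusted p of such genes can be too low, and no fold is given for them.

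The member that rose was PYL6, an abscisic acid receptor (log2 difference 1.51). PYL4, a receptor of the same family, was not called: it held 989, 807 and 956 in V3, against 733, 576 and 718 in V2 (0.44 ± 0.18 SE, adjusted p = 0.0787). Of 11 late embryogenesis abundant proteins and dehydrins tested, 7 fell and 3 rose. Dehydrins also stand in the lists of abscisic acid response (RAB18) and cold response (ERD10), so these counts are not taken as separate. LEA14 (Aa_G105830), a small protective protein of drying tissue, averaged 63.5 ± 13.7 in V3 and 1184 ± 292 in V2, a difference of -4.19 ± 0.80 SE (adjusted p = 0.00265). Of 3 genes of abscisic acid synthesis, breakdown and transport 1 rose and 2 fell.

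Cold and clock genes, and some heat factors, were also lower in V3 buds, although both zones had been at 20 °C for 5 days. Of 11 cold response genes 10 fell and none rose (median -2.03). ERD10 (Aa_G622600), a cold- and drought-induced dehydrin, held 3403, 3681 and 3197 in V3, against 31016, 24826 and 22024 in V2 (-2.91 ± 0.39 SE, adjusted p = 0.000406). CBF4 (Aa_G375200), a factor that activates cold and drought genes, held 83.8, 17.9 and 29.0 in V3, against 619, 496 and 477 in V2. Neither gene overlapped between zones, and CBF4 differed by -3.86 ± 0.67 SE (adjusted p = 0.00163). DREB2A, a factor of the drought response, averaged 12.2 ± 9.97 in V3 and 695 ± 138 in V2.

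All 5 clock genes tested fell, with a median of -2.85. ELF4 (Aa_G224250), an evening component of the clock, held 5.85, 17.9 and 8.42 in V3, against 176, 283 and 255 in V2 (-4.46 ± 0.44 SE, adjusted p = 7.61e-05). PRR5 (Aa_G45380), a repressor in the clock's day loop, held 243, 507 and 239.6 in V3, against 1959.9, 2276 and 2322 in V2 (-2.82 ± 0.29 SE, adjusted p = 9.44e-05). Both were separate between zones at 5 d, and at 0 d neither was called: ELF4 held 106, 163 and 174 in V3 and 247, 114 and 290.0 in V2. The labels used here give no hour of harvest, and whether the zones were taken at the same hour cannot be read from them.

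Among 10 heat shock and chaperone genes, 6 fell and 1 rose (median -1.20), and 4 were called without V2 replicate 2. The share called was close to the 65.4% of all genes with a homologue. The genes that fell included transcription factors of the heat response, such as HSFA4A at 76.7 ± 26.4 in V3 and 673 ± 37.8 in V2 (-3.18 ± 0.39 SE, adjusted p = 0.000347). HSFA2, another such factor, overlapped between zones, at 84.8, 151 and 70.2 in V3 and 123, 391 and 247 in V2.

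Called genes in families of stress-related transcription factors were mostly lower. The families share members with the lists above, such as NAP, and are not separate from them. Of 19 NAC genes tested 16 fell and none rose (median -2.02), and of 12 WRKY genes 11 fell and 1 rose (median -1.43). In 5 of the NAC genes a whole zone was listed at 0, so their size is not a measured fold. Of 42 AP2/ERF genes 21 fell, 2 rose and 19 were not called (median -1.45). The share of AP2/ERF genes called was under the 65.4% of all genes with a homologue. NAC053, a stress-related NAC factor, held 373, 338 and 432 in V3, against 1827, 1385 and 1437 in V2. WRKY21 (Aa_G351180) held 1201, 1281 and 1200.0 in V3, against 3163, 3240.5 and 3123 in V2 (-1.37 ± 0.10 SE, adjusted p = 7.59e-06). The WRKY gene that rose was TTG2, which acts in trichome and seed coat development, at 552 ± 66.7 in V3 and 258 ± 12.5 in V2. Of 4 calmodulin-like genes 3 fell. Other large families were mixed: 7 of 21 bHLH genes rose and 3 fell, and 8 of 34 cytochrome P450 genes rose and 15 fell.

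All 3 tested sugar starvation genes fell in V3 buds (median -2.29). Of 9 genes of trehalose, galactinol, starch and sucrose 5 fell, 1 rose and 3 were not called (median -0.93), a share of called genes close to the 65.4% of all genes with a homologue. SUS3 (Aa_G191670), a sucrose synthase that splits sucrose, held 1387, 1326 and 1141 in V3, against 7726, 8162 and 4458 in V2 (-2.35 ± 0.23 SE, adjusted p = 7.47e-05). BAM3, a plastid beta-amylase that breaks down starch, held 1753, 1764 and 1215 in V3, against 6939, 5198 and 5807 in V2. In both genes every V3 library lay below every V2 library. GOLS3, a galactinol synthase induced by cold, was listed at 0 in the V3 libraries, with an FPKM of 0.144, 0.156 and 0, and held 211, 185 and 149 in V2, with an FPKM of 7.47, 7.02 and 5.95.

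Transporters moved in both directions, with 10 of 18 lower and 4 higher. STP4 (Aa_G50700), a monosaccharide importer of the plasma membrane, held 90.6, 84.4 and 104 in V3, against 748, 615 and 483 in V2 (-2.70 ± 0.25 SE, adjusted p = 5.06e-05). TMT1 (Aa_G334130), which loads sugars into the vacuole, held 554, 571 and 686 in V3, against 203, 96.1 and 220.0 in V2 (1.88 ± 0.32 SE, adjusted p = 0.00148). The sugar exporter SWEET13 was listed at 0 in V3, with an FPKM of 0.415, 0.632 and 0.161, and held 94.5, 93.1 and 97.0 in V2. KAT2, a potassium channel, went the other way, with 602, 609 and 719.8 in V3. It was listed at 0 in V2 replicates 1 and 3, with an FPKM of 0.148, 0.155 and 0.0722 in V2 against 4.65, 5.00 and 4.79 in V3. V2 replicate 2 was left out as failed, so KAT2 could not be tested without either V2 library that remained. Of 9 genes grouped under the NPF family of transporters 5 fell. Of these, 1 was called without V2 replicate 2 or V2 replicate 3, and 2 without V2 replicate 1, V3 replicate 1 or V3 replicate 2.

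Genes of DNA replication and mitosis were higher in V3 buds. All 16 tested S phase genes and all 16 tested genes of G2/M and cytokinesis rose, with medians of 1.26 and 1.69. MCM4 (Aa_G543470), a subunit of the replicative helicase, held 4690.0, 4390.0 and 5089 in V3, against 1875, 1840.1 and 1736 in V2 (1.38 ± 0.16 SE, adjusted p = 0.000171). MET1 (Aa_G89460), which copies DNA methylation after replication, averaged 6128 ± 614 in V3 and 2084 ± 591 in V2. ORC2, a subunit of the complex that marks replication origins, held 260.2, 212 and 217 in V3, against 64.9, 51.5 and 82.6 in V2. All V3 values of these genes exceeded all V2 values.

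Later steps of the cycle showed like sizes. CSLD5 (Aa_G6600), a cell plate polysaccharide synthase, held 5443, 4939 and 5496 in V3, against 1673, 1358 and 1875 in V2 (3.26-fold higher on the fitted scale, adjusted p = 9.26e-05). HIK, a kinesin needed for cytokinesis, averaged 2305 ± 174 in V3 and 612 ± 155 in V2. Of 14 kinesin genes 13 rose and 1 fell (median 1.44), and the gene that fell, the homologue of AT3G51150, differed by -0.90. The G2/M list holds kinesins too, so the counts are not taken as separate. SIM, an inhibitor of cyclin-dependent kinases, rose as well: it held 289, 336 and 281 in V3, against 182, 166 and 173 in V2 (0.79 ± 0.23 SE, adjusted p = 0.0208). Of 3 G1 genes tested 2 were called, and 1 without V2 replicate 2, V2 replicate 3 or V3 replicate 2, each of which ended the call of SIM.

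Chromatin and protein synthesis genes rose with them. Of 11 core histone genes 10 rose and none fell (median 1.46). HTB2 (Aa_G552180), an H2B histone, held 9166, 9598 and 9812 in V3, against 1863, 1981 and 3101 in V2 (2.08 ± 0.23 SE, adjusted p = 0.00015). Of 27 ribosomal protein genes 22 rose and 1 fell (median 1.06), and RPL24A held 7164, 6877 and 6247 in V3, against 2984, 3062 and 3707 in V2 (1.06 ± 0.20 SE, adjusted p = 0.00283). All 3 tubulin genes rose, and the gene of the beta-tubulin TUB7 averaged 11558 ± 194 in V3 and 4953 ± 869 in V2. Pentatricopeptide proteins, which process organelle RNA, did not share this pattern: 2 of 16 rose and 6 fell.

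**Figure D3:**
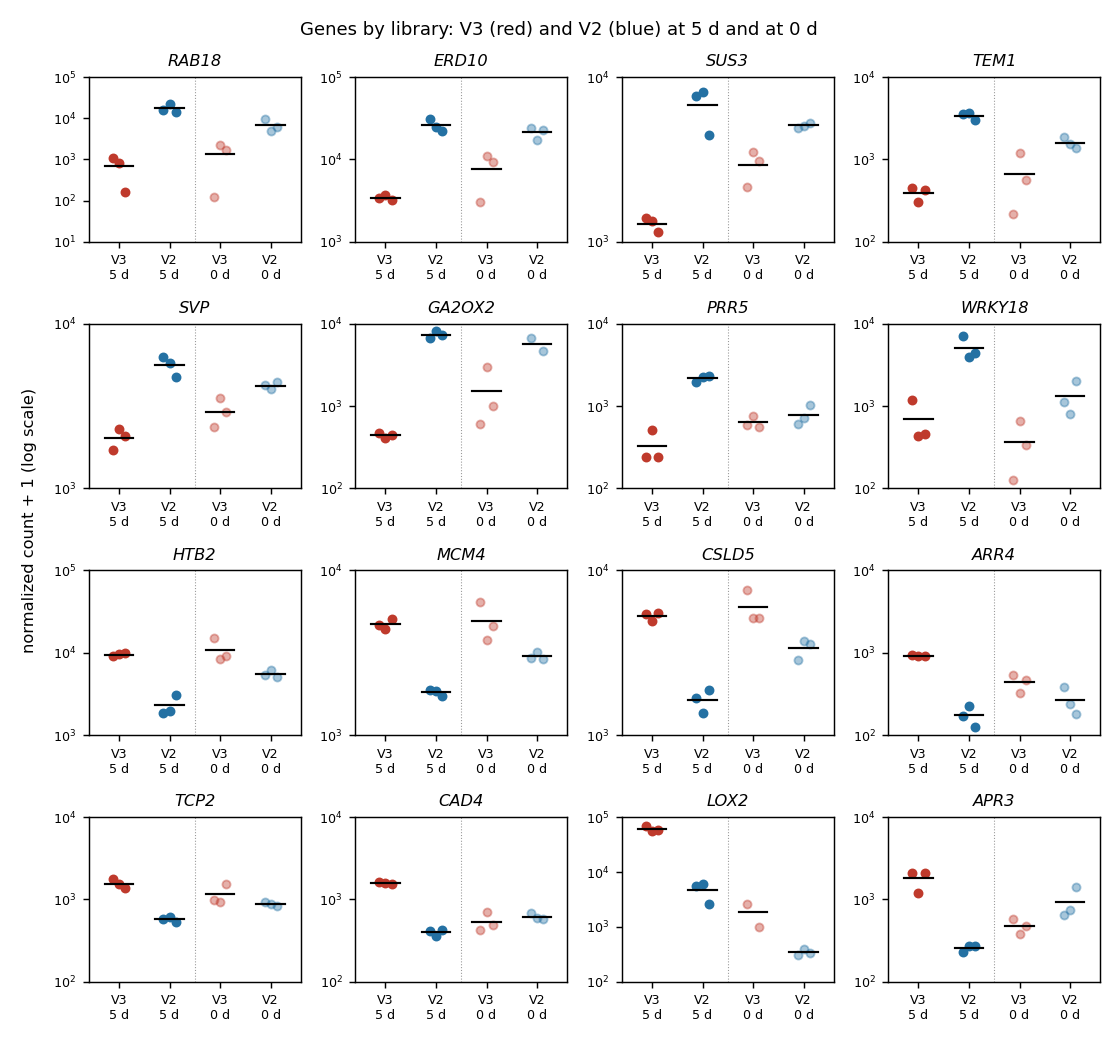
Normalised count + 1 (vertical axes, log scale) of 16 genes in V3 and V2 buds at 5 d and, paler, at 0 d. Points are libraries with failed zeros left out and lines are means. The V3 and V2 libraries at 5 d do not overlap in these genes, which was a condition of the main naming rule.

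Gibberellin genes were mostly lower in V3 buds, with 7 of 8 down and 1 up (median -1.50). The list mixes genes of synthesis, breakdown, reception and repression, so its count gives no direction of hormone action. The receptor genes GID1A and GID1C were among those that fell. GID1A (Aa_G4890) held 1022, 1111 and 1040.0 in V3, against 2662, 2474 and 2469 in V2 (-1.26 ± 0.22 SE, adjusted p = 0.00174). GID1C held 196, 121 and 292 in V3, against 616, 639 and 656 in V2 (-1.73 ± 0.34 SE, adjusted p = 0.00322). V2 libraries were close together in both receptors, and no V3 library reached them.

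Of 8 cytokinin genes tested 2 rose, 4 fell and 2 were not called (median -0.41). ARR4 (Aa_G226650), a type-A response regulator induced by cytokinin, held 933, 920.2 and 901 in V3, against 169.6, 226 and 123 in V2 (2.45 ± 0.30 SE, adjusted p = 0.000245). The cytokinin oxidases, which degrade the hormone, moved apart. CKX1 (Aa_G188410) held 248, 241 and 227 in V3, against 1071, 1090.4 and 1816 in V2 (-2.43 ± 0.37 SE, adjusted p = 0.000848). CKX5 held 152, 222 and 254 in V3, against 72.8, 53.5 and 76.3 in V2 (1.60 ± 0.36 SE, adjusted p = 0.00607). LOG1, an enzyme that releases active cytokinin, was not called (0.80 ± 0.34 SE, adjusted p = 0.0856), with values of 479, 286 and 392 in V3 and 256, 180.2 and 217 in V2.

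Among 13 auxin genes 4 rose, 1 fell and 8 were not called (median 0.82), and 3 were called without V2 replicate 1 or V3 replicate 2. GH3.6 (Aa_G432960), which conjugates and so inactivates auxin, was the one that fell, at 2908, 2977 and 3263 in V3 against 9043, 10129 and 10706 in V2 (-1.71 ± 0.10 SE, adjusted p = 2.44e-06). PIN6, an auxin carrier, held 829, 897 and 915 in V3, against 385, 298 and 522 in V2 (1.17 ± 0.21 SE, adjusted p = 0.00176). SAUR50, a growth-related early auxin gene, averaged 249.8 ± 3.77 in V3 and 68.6 ± 18.0 in V2.

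Both genes of karrikin signalling that could be tested fell. SMAX1 (Aa_G227690), a repressor in that pathway, held 1004, 881 and 751 in V3, against 2854, 2234 and 2111 in V2 (-1.45 ± 0.23 SE, adjusted p = 0.000994). KAI2 (Aa_G153310), the receptor that leads to its removal, held 954, 835 and 789 in V3, against 1727, 1922 and 1758 in V2 (-1.07 ± 0.15 SE, adjusted p = 0.000622). Receptor and repressor were thus both lower.

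Of 6 ethylene genes 4 fell and none rose (median -1.60), although 2 were called without V2 replicate 1 or V3 replicate 2. ACO4 (Aa_G493500), the last enzyme of ethylene synthesis, held 302, 282 and 237 in V3, against 893, 1587 and 982 in V2 (-2.03 ± 0.22 SE, adjusted p = 0.00014). EBF2, an F-box protein that damps ethylene signalling, averaged 3242 ± 384 in V3 and 9054 ± 1465 in V2 (-1.48 ± 0.21 SE, adjusted p = 0.000607). Synthesis and a brake of the pathway were both lower.

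Jasmonate genes did not move as a group: 2 of 15 rose, 3 fell and 10 were not called (median -0.33), and 3 were called without V2 replicate 1 or V3 replicate 3. LOX2 (Aa_G49590), a chloroplast lipoxygenase of jasmonate synthesis, held 67894, 57079 and 59334 in V3, against 5509.8, 6172 and 2560.4 in V2 (3.79 ± 0.39 SE, adjusted p = 0.000148). CYP94B3, which inactivates the hormone, held 90.6, 40.1 and 57.1 in V3, against 748, 498 and 564 in V2 (-3.30 ± 0.64 SE, adjusted p = 0.00296). LOX3, a second lipoxygenase, overlapped between zones at 1061, 752 and 1132 in V3 and 2324, 1104 and 1424 in V2. Of 4 brassinosteroid genes 1 rose and 2 fell.

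Repressors of flowering fell, while some promoters rose. Of 5 repressors tested 4 fell and none rose (median -2.61). TEM1 (Aa_G596330), a repressor of the florigen gene in A. thaliana, held 444, 299.7 and 422 in V3, against 3552, 3654 and 3023 in V2 (-3.15 ± 0.47 SE, adjusted p = 0.000744). SVP (Aa_G311490), a MADS-box repressor of flowering, held 1710.1, 2306 and 2069 in V3, against 6291, 5811 and 4737 in V2 (-1.47 ± 0.16 SE, adjusted p = 0.00015). In both, the V3 libraries lay wholly below the V2 libraries.

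Of 6 promoters 3 rose and none fell (median 1.01). SPL10, a factor that promotes adult traits and flowering, held 606, 645 and 572 in V3, against 304, 284 and 322 in V2 (1.00 ± 0.15 SE, adjusted p = 0.000857). AGL19, a MADS-box gene that promotes flowering after cold in A. thaliana, held 422, 434 and 428 in V3, against 203, 184 and 200.3 in V2. SPL3 had 164, 156 and 135 in V3 and 71.7, 118 and 48.5 in V2 and was not called (adjusted p = 0.0587). Of the floral organ identity genes 2 were tested, and CRC rose while UFO fell. UFO (Aa_G355720), a floral F-box protein, held 45.8, 86.5 and 80.5 in V3, against 328, 268 and 353 in V2 (-2.18 ± 0.24 SE, adjusted p = 0.000138).

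Meristem and boundary genes were split, with 4 of 11 lower and 2 higher (median -0.23). The 4 that fell are organ boundary genes. CUC1, a NAC factor that keeps organs apart, held 53.6, 60.2 and 54.3 in V3, against 173, 175 and 126 in V2 (-1.47 ± 0.20 SE, adjusted p = 0.000408). KNAT6, a homeobox gene of the same boundary, held 140.3, 221 and 172 in V3, against 359, 428 and 457 in V2 (-1.23 ± 0.18 SE, adjusted p = 0.000621). The genes that rose, TCP15 and TCP2, encode TCP factors of leaf development, and TCP2 held 1772, 1523 and 1381 in V3, against 579, 608 and 529.9 in V2 (1.44 ± 0.18 SE, adjusted p = 0.000252).

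Genes of the growing wall were higher in part. Of 14 genes of primary wall remodelling 6 rose and 2 fell (median 0.83), and 5 were called without V2 replicate 1 or V3 replicate 1. Even with all libraries the share called was under the 65.4% of all genes with a homologue. BXL2 (Aa_G6530), a beta-xylosidase that trims wall polymers, held 1092, 889.6 and 989 in V3, against 168, 208 and 304 in V2 (2.16 ± 0.24 SE, adjusted p = 0.000135). EXLA2, an expansin-like protein, went the other way, at 408, 286 and 326 in V3 against 2274, 2014 and 2211 in V2 (-2.68 ± 0.68 SE, adjusted p = 0.0116).

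Of 16 genes of secondary wall, vessels and lignin 7 rose and none fell (median 1.00), also a share of called genes under 65.4%. CAD4 (Aa_G20150), a cinnamyl alcohol dehydrogenase of lignin synthesis, held 1625, 1576 and 1528 in V3, against 415, 363 and 427 in V2 (1.97 ± 0.16 SE, adjusted p = 2.09e-05). PAL4, at the entry of the phenylpropanoid pathway, averaged 1492 ± 167 in V3 and 399 ± 79.6 in V2. XCP1, a protease of differentiating vessels, held 264, 307 and 319 in V3, against 109, 78.2 and 27.8 in V2. The related XCP2 was not called, with 162, 168 and 189 in V3 and 78.5 and 76.3 in the 2 usable V2 libraries (adjusted p = 0.362). CHS, the first enzyme of flavonoid synthesis, was not called and overlapped between zones at 6364 ± 706 in V3 and 5148 ± 1873 in V2. Of the 7 flavonoid and anthocyanin genes 1 rose and 3 fell, and 2 were called without V2 replicate 2 or V2 replicate 3.

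Several genes of the leaf epidermis rose. GL3 (Aa_G547900), a bHLH factor of trichome fate, held 2426, 2278 and 2389 in V3, against 627, 605 and 732 in V2 (1.86 ± 0.14 SE, adjusted p = 1.42e-05). MYB106, which shapes trichomes and the cuticle, averaged 2174 ± 141 in V3 and 759 ± 75.9 in V2. SDD1, a protease that limits stomatal density, held 102, 133 and 103 in V3, against 15.9, 5.94 and 10.8 in V2 (3.34 ± 0.40 SE, adjusted p = 0.000228). Cuticle genes as a list were mixed, with 3 of 9 up and 2 down: GPAT6, a cutin synthesis enzyme, averaged 1698 ± 234 in V3 and 645 ± 88.3 in V2. LTP4, a lipid transfer protein, held 231, 238 and 194 in V3, against 4084, 3952 and 1750.3 in V2 (-3.78 ± 0.54 SE, adjusted p = 0.000559).

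Of 7 photosynthesis genes 4 rose and none fell (median 0.82). PORA, which makes chlorophyll precursors in the light, held 8414, 10507 and 6223 in V3, against 2938, 3134 and 2936 in V2 (1.45 ± 0.19 SE, adjusted p = 0.000357). LHCB6, an antenna protein of photosystem II, averaged 14518 ± 1560.0 in V3 and 6895 ± 1597 in V2. RBCS3B, a small subunit of the carbon-fixing enzyme Rubisco, overlapped between zones, at 19433, 21351 and 39134 in V3 and 9752, 13929.5 and 22234 in V2.

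Genes that respond to sulphur shortage stood out on the higher side, a group put together after its values had been seen. SDI1 (Aa_G138960), which in A. thaliana represses glucosinolate synthesis when sulphur is short, held 2616, 1409.8 and 2889 in V3 and was listed at 0 in the 3 V2 libraries. Its FPKM was 134, 67.0 and 150 in V3, against 0, 0 and 0.0823 in V2. LSU2 (Aa_G392350), a marker of sulphur limitation, held 526, 159 and 398 in V3, against 11.4, 11.9 and 9.88 in V2 (4.75 ± 0.61 SE, adjusted p = 0.000321). APR3 (Aa_G117440), a reductase of sulphate assimilation, held 2107, 1210.4 and 2081 in V3, against 229.9, 274 and 271 in V2 (2.75 ± 0.31 SE, adjusted p = 0.00015). V3 replicate 2 was the lowest V3 library in all 3 genes and still lay above every V2 library. The homologue of SDI2 showed the same order, at 821 ± 236 in V3 and 102 ± 22.5 in V2.

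Glucosinolate synthesis uses the sulphur that this pathway provides, and 7 of its 14 tested genes rose while 1 fell (median 0.83). The total of 8 became 5 without V2 replicate 2, V2 replicate 3, V3 replicate 1 or V3 replicate 2, and 4 without V3 replicate 3. SOT16, a sulphotransferase that completes the core of indolic glucosinolates, held 389.8, 485 and 755 in V3, against 139, 126 and 83.5 in V2 (2.19 ± 0.50 SE, adjusted p = 0.00657). GSTU20, a glutathione transferase placed in this pathway, held 23433, 22965 and 24271 in V3, against 9558, 10470.1 and 9504 in V2 (1.26 ± 0.12 SE, adjusted p = 7.25e-05).

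Beyond these lists, the largest rises with 3 usable libraries per zone included CP2 and ICS2. CP2 (Aa_G495040), a papain-like cysteine protease, held 9823, 9610.4 and 9723 in V3, against 267, 201 and 128 in V2 (5.67 ± 0.41 SE, adjusted p = 9.42e-06). ICS2 (Aa_G497100), an isochorismate synthase, held 9633, 8216 and 8228 in V3, against 520.1, 665 and 231 in V2 (4.33 ± 0.57 SE, adjusted p = 0.00121). On the lower side MEE14 (Aa_G81740) held 29.2, 29.5 and 13.1 in V3, against 1484, 2547 and 1543 in V2 (-6.26 ± 0.57 SE, adjusted p = 7.47e-05). UMAMIT36, of a family of amino acid transporters, was listed at 0 in V3 and held 71.7, 132 and 112 in V2. With zeros as deposited the calls of HSFA4A, LOX2, ICS2 and MEE14 were lost, although their failed zeros lie in 0 d libraries.

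Markers of cell types were summed as FPKM, a level per length. A marker could be paired only if the authors listed it as changed in a comparison of these libraries. Markers listed in none are missing, so the sums describe changed genes and are no measure of cell types. The 3 of 7 phloem markers paired (AHA3, PP2-A1 and APL) summed to 5.30 to 7.30 in V3 and 12.0 to 19.1 in V2, but 1 of them could be tested and it was not called. The vessel markers XCP1 and XCP2, 2 of 8, summed to 19.7 to 21.5 in V3 and 2.65 to 8.29 in V2, with 1 of 2 called. Senescing-leaf markers (SAG21, NAP and SAG20, 3 of 8) summed to 105 to 210 in V3 and 370 to 468 in V2, with 2 of 3 tested called. Trichome markers (GL3 and MYB106, 2 of 6) summed to 152 to 166 in V3 and 48.9 to 57.1 in V2, and both were called. The stomatal lineage (TMM, EPF1 and EPF2, 3 of 6) summed to 39.5 to 54.7 in V3 and 15.4 to 19.7 in V2, with 1 of 2 tested called. CRC, 1 of 8 floral organ markers, lay at 5.15 to 7.81 in V3 and 0.841 to 1.51 in V2. No marker of leaf mesophyll, shoot meristem or root was paired, so the labelled tissue could not be checked against its own markers. These sums moved with the vessel, trichome and stomatal genes described above, of which some are the markers themselves, and the part of tissue make-up in those results was not tested.

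At the end of the cold fewer genes were called between the zones. Of 16099 genes tested at 0 d, 802 (4.98%) were called, 202 higher and 600 lower in V3. Among genes tested at both times the median size of the difference was 0.43 at 5 d and 0.27 at 0 d. Of the 5780 genes called at 5 d and tested at 0 d, 4874 (84.3%) had the same sign at 0 d, against 70.4% of all 15482 genes tested at both times. Called at both times were 451 genes, 20 of them in opposite directions. The 0 d libraries include V2 replicate 3, with 12252622 reads and 6574 failed zeros, and V3 replicate 1, which lay at -79.6 on the first principal component, against -39.0 and -52.9 for its partners. Without both, 245 genes were called at 0 d.

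A change of the zone difference between 0 d and 5 d, tested as a contrast in the same fit, was called for 1036 of 15967 genes (6.49%), 567 with a positive and 469 with a negative change. Of the 935 that could be tested at both times 833 differed more at 5 d. The 1036 became 565, 524 and 544 without V3 replicate 1, 2 or 3 at 5 d, 579 and 609 without V2 replicate 1 or 2, and 1583 without the 2 libraries at 0 d named above. UFO shows the pattern: at 0 d it held 294, 369 and 299 in V3 and 308, 371 and 310.4 in V2, overlapping wholly, and its zone difference changed by -2.14 (adjusted p = 0.00565). CAD4 held 427, 694 and 492 in V3 and 677, 587 and 585 in V2 at 0 d, and its difference changed by 2.19 (adjusted p = 0.000384).

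In the sulphur genes the sign differed between the times. At 0 d LSU2 averaged 11.5 ± 6.15 in V3 and 40.0 ± 24.1 in V2, with overlap between the zones, and APR3 held 578, 374 and 469 in V3, against 646, 744 and 1412 in V2. Neither was called at 0 d, and the changes of the difference were 6.33 (adjusted p = 0.00255) and 3.67 (adjusted p = 0.00096). SDI1 was listed at 0 in every usable library of both zones at 0 d. Other genes kept 1 order at both times: DDF1, a factor of the cold and gibberellin responses, held 77.0, 52.8 and 73.0 in V3, against 802, 507 and 669 in V2 at 5 d, and averaged 17.3 ± 13.1 in V3 and 233.9 ± 139 in V2 at 0 d. Its difference changed by 0.53 (adjusted p = 0.724).

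**Figure D4:**
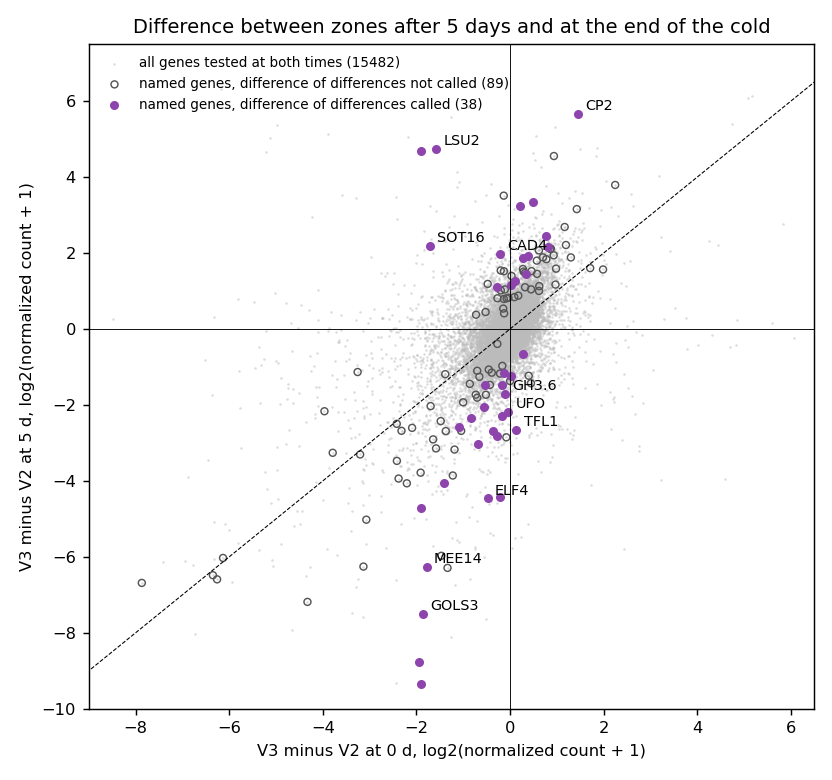
Difference between V3 and V2 buds at 5 d (vertical axis) and at 0 d (horizontal axis), both as log2 of normalised count + 1, for 15482 genes tested at both times. Circles are named genes, filled where the change of the difference was called (38) and open where it was not (89), and the dashed line marks equal differences. UFO lies near 0 on the horizontal axis, and LSU2 and SOT16 lie left of 0 and above 0.

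The authors' deposited table for this comparison lists 1984 genes, 858 higher and 1126 lower in V3. Of these 1719 could be tested, 1654 were called, and all 1654 had the sign of the authors' deposited table. Both sets of calls rest on the same libraries, so the shared sign is no independent check. The other 265 could not be tested once failed zeros were left out. Of 180 genes with an absolute log2 fold change above 10 in the authors' deposited table, 18 were testable, and all 18 were called.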

How the data were processed

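PolyA RNA of 12 libraries was sequenced (1 µg RNA, RIN above 8, stranded kit, single reads of 150 bp, per the labels' protocols). The submitters' processing notes name HISAT2, StringTie, TopHat and DESeq2. Which versions, options and genome build applied is not given in the sources used here.

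The signal values of 19722 genes, named counts per the file headers, are normalised counts: as deposited by the authors, each library had been divided by 1 factor. Whole reads were recovered from them: 100% of values lay within 0.05 of a whole multiple of the library's step, which in V2 replicate 2 at both times is close to 1 and rests on the smallest value. The authors deposited FPKM per library for 3877 of the 3884 genes they listed in any comparison. The authors' deposited log2 fold changes and adjusted p-values were used for the closing comparison alone. A. thaliana homologues are given for 2896 listed genes and symbols for 1607. Of the per-sample columns, 0 were left without a sample.

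A 0 was failed, and left out, if its FPKM was at least 1, if the count expected from its FPKM (with the gene's median ratio of count to FPKM) was at least 20, or if another library of the group held at least 20. This removed 5577 values at 5 d in 2541 genes, 120 by the expected count alone, a criterion added after values were seen. The tool limma (3.58.1, intensity trend, R 4.3.3) was fitted to log2(normalised count + 1) of all 12 libraries with 1 mean per group. A gene was tested with a mean of 10 or more and 2 or more usable libraries per group. P-values were adjusted over all genes of a comparison. Alternatives used edgeR 4.0.16 and DESeq2 1.42.0.

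Members and lists were chosen with earlier results of these data known. The text names up to 4 called members per list with the largest change, a mean of at least 100 in the higher group and no overlap, 1 more of the other direction, 1 uncalled member, and the 10 largest changes per direction outside the lists. Some of these are left out of the text. Further members (in the S phase, G2/M, histone, ribosomal, NAC, WRKY, AP2/ERF, kinesin, tubulin and sulphur groups, for example) were chosen after their values were seen, as were the families, which were found by annotation text. Genes of near-identical copies may share reads. Medians of lists stayed the same with genes listed at 0 throughout a group set to the bound of 3 counts per library.

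Same-numbered V3 and V2 libraries at 5 d had correlations of their deviations of 0.026, 0.084 and 0.023 over 9933 genes, so the numbers were not taken as pairs.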

Additional observations from a re-analysis of the deposited data

Results flagged for a closer look

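For 41 named genes the difference between V3 and V2 buds at 5 d differed from that at 0 d by limma's contrast of the 2 differences (adjusted p under 0.05). Each value is the V3 minus V2 difference at 5 d minus that at 0 d on the log2 scale. Where a whole group is listed at 0 at either time the value depends on the added count of 1 and has no fold meaning, as for SDI1, KAT2, GOLS3 and DAA1.

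Among genes of drying, cold and abscisic acid the change was -7.45 for RD29B, -5.64 for GOLS3, -4.19 for COR28, -2.64 for ABI5 and -1.51 for ABI1. DAA1 changed by -6.83, MEE14 by -4.47 and the dormancy factor HB53 by -2.80. The clock genes ELF4 and PRR5 changed by -3.98 and -2.54. Genes of sugar use and supply changed by -2.34 (BZIP1), -2.32 (STP4), -2.12 (TPS9), -1.52 (SUS3) and -1.49 (TPS11). In flowering and boundary genes the values were -2.78 for TFL1, -2.14 for UFO, -1.30 for CUC1, -1.26 for KNAT6 and -0.92 for SVP. The hormone genes GH3.6, BAS1 and DWF4 changed by -1.60, -1.03 and -0.95.

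Positive changes were 1.09 for TCP2, 1.13 for C3H1, 1.16 for GSTU20, 1.34 for BXL2, 1.37 for RGL1, 1.53 for PAL4, 1.59 for GL3, 1.68 for ARR4, 2.19 for CAD4, 2.86 for SDD1 and 3.02 for MATK. They reached 3.91 for SOT16, 4.21 for CP2, 6.33 for LSU2, 6.60 for MSRB5, 8.23 for MDAR3, 9.33 for KAT2 and 11.10 for SDI1. MATK, a plastid gene in A. thaliana, stood at 133 ± 47.7 in V3 and 14.3 ± 9.37 in V2 at 5 d.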

How the results depend on the processing

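The 6323 genes called at 5 d became 4060 with edgeR on genes without a failed zero, 2816 with edgeR and 3170 with limma on zeros as deposited, and 2715 of 3877 with FPKM. Genes higher numbered 1630, 1592 and 1310 with edgeR and limma on zeros as deposited and with FPKM, and genes lower 1186, 1578 and 1405; DESeq2 and edgeR on genes without a failed zero gave 2219 and 2049 lower. Called genes of at least 2-fold (2661) numbered 1636 with DESeq2, 1588 and 1366 with edgeR without failed zeros and with zeros as deposited, 1553 with limma on zeros as deposited, and 1522 with FPKM. Without 1 library at 5 d, 4813 to 5403 genes were called, 2157 to 2452 higher and 2586 to 2951 lower, and 2222 to 2525 of at least 2-fold. The genes called at 0 d ranged from 538 to 655 and the changes of the difference from 524 to 738. The 802 at 0 d became 1777 with zeros failed by partner libraries alone, 435 with the replicate block and 245 without the 2 libraries at 0 d that stand apart. The 1036 changes of the difference became 1683, 649 and 1583 under those settings and 681 with zeros as deposited. The replicate block gave 5783 genes at 5 d and ended 4 of 127 calls of named genes; the numbers were not shown to pair the libraries, and 2 of 3 V3 libraries correlated best with their own number. MBP1 reversed, to -1.04, with zeros as deposited, a setting that ended 22 of the 127 calls, and edgeR on the same values ended 32. Of 20 named genes that were not called, 8 were called with the 6 libraries at 5 d alone and 12 with FPKM, PYL4 and LOG1 under both. Without each library in turn 106 of 127 remained called. The causes of these changes were not tested. Genes with failed zeros in 2 of 3 libraries of a zone could not be tested at all.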
